A study of Mus musculus with 12 samples.

Results

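NF-kB is a family of transcription factors that work as dimers of 5 related subunits, and 10 genes of this system are described here, namely the subunit genes Nfkb1, Nfkb2, Rel, Rela and Relb and the inhibitor genes Nfkbia, Nfkbie, Nfkbiz, Tnfaip3 and Tnip1. They were taken by gene symbol, and all 10 of the 10 listed were found among the 20202 genes of the deposited expression table. The RNA-seq libraries came from ML23, a mouse acute myeloid leukemia line made from cells of an rtTA transgenic mouse by lentiviral overexpression of Meis1, HoxA9 and HoxB5 and passaged in C57BL/6 mice. ZsGreen+ leukemic cells from the bone marrow of 3 diseased mice were sorted into 4 sub-populations, and 3 libraries were made of each, from 100 cells a library by the sample labels. P11 cells carried cKit and CD48 but neither CD9 nor Mac1, and this is the sub-population that the study treats as its leukemia stem cells (LSCs). P9 cells carried CD9, cKit and Mac1 without CD48, P10 cells carried cKit, Mac1 and CD48 without CD9, and P12 cells carried CD48 alone of these markers. All 4 groups thus share the line, the 3 introduced factors and the host strain. The age and sex of the mice are not given in the sources used here, and the labels do not say which libraries share a mouse, so p-values measure the spread between these libraries. The source name in the labels is hematopoietic stem cells. Of 8 listed stem cell marker genes 4 had values. These summed to 1.66 to 2.04 CPM in P11 and 0.224 to 1.86 CPM in P12. Their sums were higher in P9 (2.75 to 5.23 CPM) and P10 (3.03 to 4.05 CPM). Kit, a gene of the sort that is not on that list, averaged 63.2 CPM in P11, against 54.5 in P9, 12.7 in P10 and 5.19 in P12. Neutrophil marker genes were abundant in P9 and monocyte marker genes in P11, P10 and P12, as given below.

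In resting cells NF-kB dimers are held in the cytoplasm by inhibitors of the IkB family. Signals from receptors for TNF, interleukin-1 or microbial products activate the IKK kinases, which mark the inhibitors for destruction and free the dimers. The freed dimers switch on, among many other genes, those of their own inhibitors, which ends the response. In myeloid cells the system is best known for driving inflammatory cytokine genes and cell survival.

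Because several inhibitor and subunit genes are known targets of NF-kB itself, the 250 bases before their RefSeq start sites (GRCm38.p6, the mm10 assembly) were searched on both strands for the kappaB consensus, the short motif that the dimers bind. Of the 10 members 7 had a promoter entry (Nfkb2, Rel, Rela, Nfkbia, Nfkbie, Tnfaip3 and Tnip1), and 6 of these 7, all but Rela, held a match. The same motif was found in 7.25% of 32851 promoters, in 8.23% of 27025 genes with an entry, and in 10.04% of the 9482 genes with an entry that were tested for expression here. The stretches around the matches outside the annotated gene are shown for 5 members, read 5′ to 3′ on the strand of the gene, with the matched bases in capitals, because these genes go on to show different patterns over the sub-populations.
Nfkb2, chr19:46304678-46304736, plus strand: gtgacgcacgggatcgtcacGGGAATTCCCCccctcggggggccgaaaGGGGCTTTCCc
Rel, chr11:23771031-23771081, minus strand: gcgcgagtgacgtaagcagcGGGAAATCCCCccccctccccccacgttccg
Nfkbia, chr12:55492649-55492696, minus strand: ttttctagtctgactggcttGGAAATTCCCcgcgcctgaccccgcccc
Nfkbie, chr17:45555574-45555623, plus strand: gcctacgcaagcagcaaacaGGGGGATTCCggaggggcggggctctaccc
Tnip1, chr11:54962967-54963018, minus strand: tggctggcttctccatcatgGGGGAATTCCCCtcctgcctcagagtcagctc

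In Nfkb2, Rel and Tnip1 the capitals hold matches at neighbouring positions on both strands, and in Nfkbia the match is on the strand opposite to the gene. Nfkb2 has 3 RefSeq start sites, and the stretch before the outermost is shown. Tnfaip3 had matches 125 to 116 and 12 to 3 bases before its outer RefSeq start site, where the gene model of the expression table already extends. A match describes the sequence and does not show that a factor binds there.

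**Figure D1:**
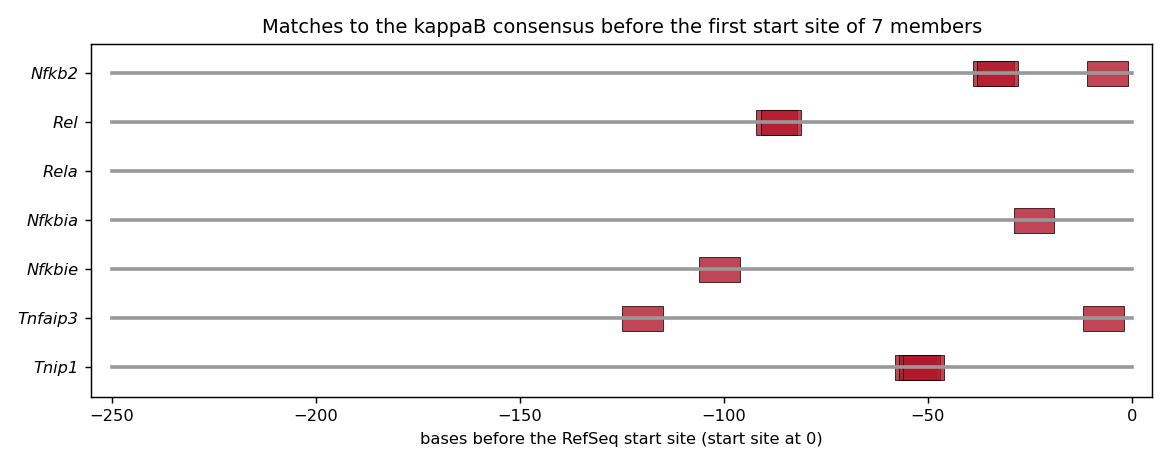
Positions of matches to the kappaB consensus (red boxes, 10 bases each, either strand) in the 250 bases before the outermost RefSeq start site of the 7 members with an entry, in bases from that start site. Rela is the only one of the 7 with no box, and in Nfkb2, Nfkbia, Tnfaip3 and Tnip1 a box lies within 60 bases of the start site.

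The values are CPM, that is, counts scaled to the total alignments of the library. The totals behind the 12 libraries were inferred, in each from a low value shared by many genes and taken as 1 alignment. The inferred totals were 13441854 to 21307424 alignments (median 17842904), at which 1 CPM would stand for at least 13.4 alignments. This median lies above the range of reads per sample given in the methods of the study. The reason for this difference was not tested. All 10 members passed the filter for testing (1 CPM or more in at least 3 libraries), as did 13450 genes in all. Genes were tested with limma on log2(CPM + 0.5), on which scale fold changes of low genes are understated, with p-values adjusted by the Benjamini-Hochberg method over all 13450 genes. A gene was called where the adjusted p was under 0.1 and the difference over 2-fold. Replicate 3 of P12 stood apart from the others of its group, with 538 CPM of Itgam, a gene of Mac1, against 139 and 130 CPM in replicates 1 and 2, and it was the highest P12 library for 9 of the 10 members. The calls of the members were therefore also made without it, and those that changed, of Relb in P9 against P12 and of Tnfaip3 in the F-test, are given with these genes. Replicate 3 of P10 stood apart as well, with a sum of 10 neutrophil markers of 11058 CPM, against 1214 and 1788 CPM in replicates 1 and 2, with 21.5 CPM of Kit, against 8.44 and 8.07 CPM, and as the highest P10 library for 7 members. The scale of CPM matters here as well, since the neutrophil markers alone summed to 105244 to 118317 CPM in P9, against 210 to 685 CPM in P11. Relative to P9 the median of all genes was 0.90 higher in P11 on the log2 scale, and 0.45 higher after rescaling by the median ratio.

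The first question was which members differ among the 4 sub-populations at all. By the F-test of limma 8 of the 10 members did (adjusted p under 0.1), against 83.9% of all genes tested, so that this share is near the background. Rela, the subunit with the strongest activation domain (adjusted p = 0.81), and Tnfaip3 (adjusted p = 0.105) did not pass. The widest range of group means was that of Nfkbiz, at 2.20 on the log2 scale. Relb (1.68), Nfkbia (1.62), Nfkb2 (1.28) and Rel (1.08) followed. The narrowest was that of Rela, at 0.15, which stood at the 0.647th percentile of the ranges of all genes tested. The median range of the members was lower than that of all genes, at 0.95 against 1.41. All these ranges are those of the CPM scale. After rescaling Rela (adjusted p = 0.088) and Tnfaip3 (adjusted p = 0.0068) passed the F-test as well. Rela was then no longer the narrowest. Its widest difference was -0.51 (P11 against P9), where those of Nfkb1 and Tnip1 were -0.39 and -0.45 (P9 against P10).

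**Figure D2:**
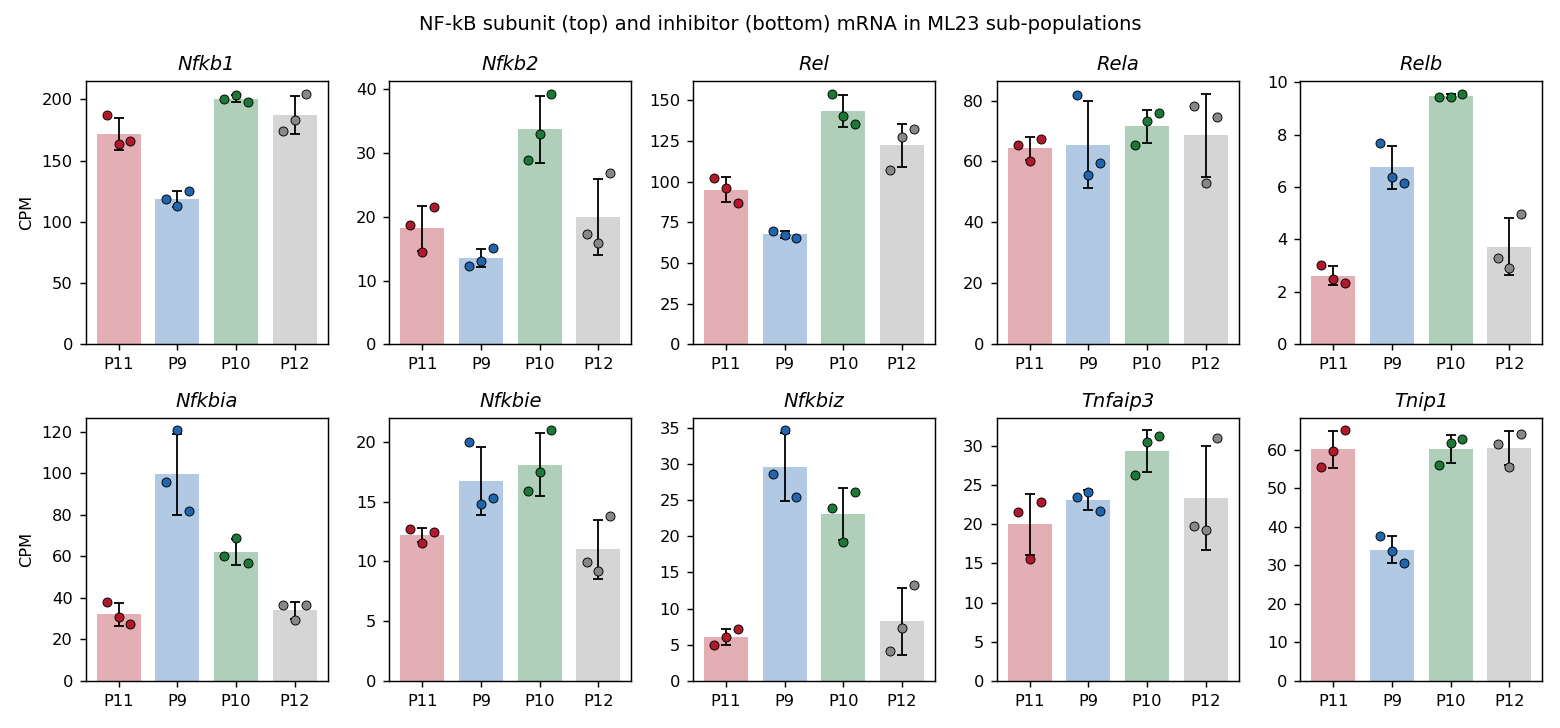
CPM of the 10 members in each library (points), with the mean (bar) and SD (line) of the 3 libraries of P11, P9, P10 and P12, subunit genes in the upper row and inhibitor genes in the lower. Relb, Nfkbia and Nfkbiz are high in P9 and P10 and low in P11 and P12, Nfkb1, Rel and Tnip1 are lowest in P9 on the CPM scale (Rel not after rescaling), and Rela has overlapping points throughout.

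Among the subunit genes, Nfkb1 (chr3:135584655-135691548, minus strand of mm10) encodes the precursor of the most widely used DNA-binding partner in these dimers. It had 187, 163 and 166 CPM in P11, against 118, 113 and 125 CPM in P9, 201, 203 and 198 CPM in P10 and 174, 183 and 205 CPM in P12. All P9 libraries were below all the others, and the P12 libraries overlapped with both P11 and P10. The order of the means was P10, P12, P11 and P9, and neither P10 and P12 (adjusted p = 0.51) nor P11 and P12 (adjusted p = 0.64) differed beyond their spread. P9 was 1.69-fold below P10 (log2 fold change -0.75 ± 0.11 SE, limma adjusted p = 3.8e-05), which did not reach 2-fold. The median of all genes in that comparison was -0.61, and after rescaling the difference of Nfkb1 was -0.39 (adjusted p = 0.0032).

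Rel (chr11:23736847-23770971, minus strand of mm10), whose product c-Rel is the subunit typical of blood cells, followed a like order. Its values were 102, 96.0 and 86.7 CPM in P11, against 69.8, 67.1 and 65.5 CPM in P9, 154, 140 and 136 CPM in P10 and 107, 127 and 132 CPM in P12. The 4 sub-populations formed ranges without overlap, with P9 lowest, then P11, P12 and P10. Rel was called lower in P9 than in P10 (log2 fold change -1.08 ± 0.11 SE, adjusted p = 3.5e-06), and the P11 values were 1.51-fold below those of P10 (adjusted p = 0.0014) without reaching 2-fold. P10 and P12 did not differ beyond their spread (adjusted p = 0.16).

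Nfkb2 (chr19:46304737-46312091, plus strand of mm10) encodes the precursor processed in the slower, alternative branch of the pathway. It was measured at 18.7, 14.4 and 21.5 CPM in P11, against 12.3, 13.1 and 15.1 CPM in P9, 28.9, 33.0 and 39.3 CPM in P10 and 17.3, 15.8 and 26.9 CPM in P12. P10 was highest in every library, and P11 overlapped with both P9 and P12, which did not overlap with each other. The gene was called lower in P9 than in P10 (log2 fold change -1.28 ± 0.22 SE, adjusted p = 1.9e-04). The difference of P11 from P10 was -0.88 (adjusted p = 0.0060), and it went past 2-fold without P11 replicate 3 (-1.0048) and after rescaling (-1.02). Nfkb2 shares 531 and 299 exon bases with 2 genes on the opposite strand, and since the labels and the methods of the study name different library kits, it is not settled whether reads were assigned by strand.

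Relb (chr7:19606217-19629439, minus strand of mm10), the partner of the Nfkb2 product in the alternative branch, was the least abundant of the 5 subunit genes per length of transcript. In CPM it had 3.04, 2.48 and 2.34 CPM in P11, against 7.69, 6.38 and 6.17 CPM in P9, 9.43, 9.43 and 9.57 CPM in P10 and 3.27, 2.93 and 4.98 CPM in P12. Every P9 and P10 library was above every P11 and P12 library, and the P11 and P12 libraries overlapped. Relb was called lower in P11 than in P9 (2.33-fold) and P10 (3.21-fold), and higher in P10 than in P12 (2.41-fold). The difference of P9 from P12, 0.80 on the log2 scale (adjusted p = 0.0063), became 1.01 without P12 replicate 3 and was then called.

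Rela (chr19:5637483-5648131, plus strand of mm10) had 65.6, 60.1 and 67.4 CPM in P11, against 81.8, 55.4 and 59.3 CPM in P9, 65.5, 73.4 and 75.8 CPM in P10 and 78.2, 52.9 and 74.7 CPM in P12. All 4 ranges overlapped. The differences between pairs of sub-populations were at most 0.15 in size on the log2 scale, with adjusted p-values of 0.47 to 0.98. The 95% intervals of the 6 differences reached from -0.52 to 0.45, so that a 2-fold difference of Rela on this scale lay outside them. The differences were this small on the CPM scale only. After rescaling the F-test did pass (adjusted p = 0.088), Rela was lower in P11 than in P9 (log2 fold change -0.51, adjusted p = 0.021) and higher in P9 than in P12 (0.38, adjusted p = 0.073), and the difference of P9 from P10 turned positive.

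To set the 5 subunit genes against each other, CPM was divided by the length of 1 main transcript per gene. Per kilobase, Nfkb1 was the most abundant, at 41.8 ± 3.2 CPM per kb in P11, against 28.9 ± 1.6 in P9, 48.7 ± 0.68 in P10 and 45.5 ± 3.8 in P12 (SD, n = 3 each). The summed level of the 5 genes was 85.2 ± 5.1 CPM per kb in P11, against 69.4 ± 5.9 in P9, 109 ± 2.1 in P10 and 95.2 ± 9.5 in P12. In CPM the P9 libraries were lowest and the P10 libraries highest, with no overlap with any other sub-population. After median-ratio rescaling, an alternative chosen for this sum after seeing the data, the sum was 75.4 ± 3.2 in P11, against 87.6 ± 9.9 in P9, 106.7 ± 0.72 in P10 and 87.5 ± 7.2 in P12, so that P11 was lowest, P10 was again highest, and P9 and P12 overlapped.

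As a share of that sum, Nfkb1 held 49.0% in P11, against 41.8% in P9, 44.6% in P10 and 47.9% in P12. Rela held 27.9% in P11, against 34.5% in P9, 24.1% in P10 and 26.5% in P12. Relb held 1.39 ± 0.13% in P11, against 4.40 ± 0.29% in P9, 3.93 ± 0.06% in P10 and 1.75 ± 0.33% in P12. These shares do not depend on the scaling of the library, and the Relb shares of P9 and P10 again lay above all those of P11 and P12.

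**Figure D3:**
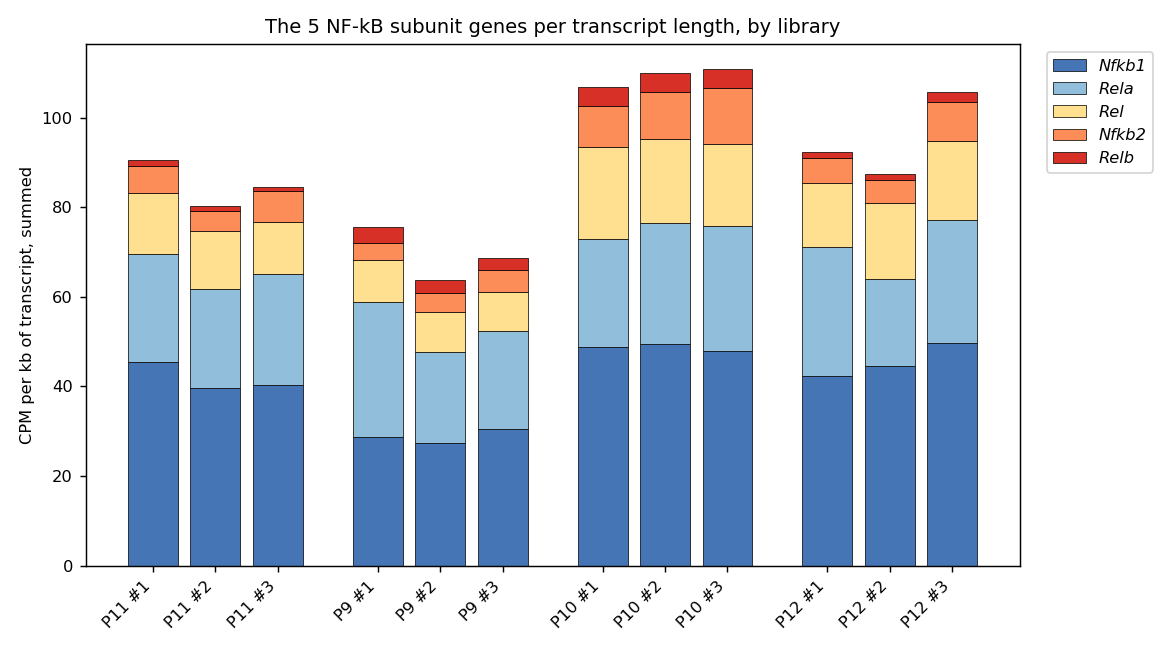
CPM per kilobase of transcript of the 5 subunit genes, stacked for each of the 12 libraries, in the order P11, P9, P10 and P12. Total height averages 85.2 in P11, against 69.4 in P9, 109 in P10 and 95.2 in P12. Blue Nfkb1 and Rela parts make up most of every bar, and the red Relb part is thinnest in P11 and P12.

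Among the inhibitor genes, Nfkbia (chr12:55489410-55492648, minus strand of mm10) encodes IkB-alpha, the classical inhibitor that is destroyed and made again in each response. It had 37.8, 31.0 and 27.3 CPM in P11, against 95.6, 121 and 82.1 CPM in P9, 60.1, 68.9 and 56.7 CPM in P10 and 36.5, 29.2 and 36.5 CPM in P12. The P9 libraries were above the P10 libraries, and these above all libraries of P11 and P12, which overlapped. Nfkbia was called 3.06-fold lower in P11 than in P9 (log2 fold change -1.62 ± 0.17 SE, adjusted p = 1.6e-06), and 2.87-fold higher in P9 than in P12 (adjusted p = 3.3e-06).

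The difference of P11 from P10 in Nfkbia, -0.95 (adjusted p = 8.1e-04), lay at the edge of the 2-fold threshold. It was past it without P10 replicate 3 (-1.01), without P11 replicate 1 (-1.07) and after rescaling (-1.09). P9 was 0.67 above P10 on the log2 scale (adjusted p = 0.0037), and P10 was 0.86 above P12 (adjusted p = 0.0039).

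Nfkbiz (chr16:55811375-55838900, minus strand of mm10) encodes IkB-zeta, an atypical nuclear member of the IkB family that acts on secondary response genes. Its values were 4.92, 6.08 and 7.11 CPM in P11, against 28.6, 34.7 and 25.4 CPM in P9, 24.0, 19.2 and 26.1 CPM in P10 and 4.17, 7.26 and 13.3 CPM in P12. All P9 and P10 libraries were above all P11 and P12 libraries, P9 and P10 overlapped, and P12 replicate 3 stood above the other P12 libraries. Nfkbiz was called lower in P11 than in P9 (4.61-fold, adjusted p = 2.8e-05) and P10 (3.62-fold, adjusted p = 6.2e-04). It was called higher in P9 than in P12 (3.76-fold) and in P10 than in P12 (2.95-fold).

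Nfkbie (chr17:45555703-45563170, plus strand of mm10), which encodes IkB-epsilon, another cytoplasmic inhibitor, varied less. It had 12.7, 11.5 and 12.4 CPM in P11, against 20.0, 14.9 and 15.3 CPM in P9, 15.9, 17.5 and 21.0 CPM in P10 and 9.97, 9.23 and 13.8 CPM in P12. The P9 and P10 libraries overlapped with each other but were all above those of P11 and P12. No pair passed 2-fold (P9 against P12 did after rescaling, at 1.03), and the largest difference was that of P10 from P12 (log2 fold change 0.71 ± 0.19 SE, adjusted p = 0.019).

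Tnfaip3 (chr10:19000910-19015658, minus strand of mm10) encodes A20, an enzyme that edits ubiquitin chains and shuts off the signal upstream of the IKK kinases. It had 21.5, 15.5 and 22.8 CPM in P11, against 23.5, 24.1 and 21.6 CPM in P9, 26.3, 30.5 and 31.2 CPM in P10 and 19.8, 19.2 and 31.0 CPM in P12. P10 lay above P11 and P9, and P12 overlapped with each of the others. In the F-test Tnfaip3 passed without P12 replicate 3 and after rescaling (adjusted p = 0.0068), but no pair reached 2-fold. The log2 fold change of P11 from P9 was -0.22 (limma adjusted p = 0.32), and -0.72 after rescaling (adjusted p = 0.0032). That of P9 from P12 was 0.02, and 0.46 after rescaling (adjusted p = 0.039).

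Tnip1 (chr11:54910785-54962918, minus strand of mm10) encodes an adaptor that brings A20 to its targets. It had 55.6, 59.7 and 65.1 CPM in P11, against 37.7, 33.8 and 30.7 CPM in P9, 56.0, 61.7 and 62.8 CPM in P10 and 61.6, 55.4 and 64.0 CPM in P12. P9 was lowest in every library, and the other 3 sub-populations overlapped. P11 was 0.81 ± 0.12 (SE) above P9 on the log2 scale (adjusted p = 4.1e-05), which is close to the median of all genes in that comparison.

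The comparison that the study made, with DESeq2 and at the same thresholds, was that of P11 with the other 3 sub-populations. The study called far fewer genes in it than the 3370 of 13450 called by limma here. Whether it called these members is not given here. Of the 10 members 2 were called by limma, Relb (log2 fold change -1.11 ± 0.19 SE, adjusted p = 2.7e-04) and Nfkbiz (-1.45 ± 0.26 SE, adjusted p = 3.9e-04). Both were lower in P11, against 25.1% of all genes called in either direction and 5.2% called lower. Nfkbia had an adjusted p of 1.5e-04 at a log2 fold change of -0.89, under 2-fold, and passed 2-fold without P11 replicate 1 (-1.01) and after rescaling (-1.12). The median over the members was -0.23, where that of all genes was 0.40. Relb was not called with replicate 3 of every sub-population left out (-0.99).

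Against P9, 3 members were called, namely Relb, Nfkbia and Nfkbiz, all lower in P11, where 57.9% of all genes were called and 11.2% were called lower. Nfkb1, Rel and Tnip1 were higher in P11 at an adjusted p under 0.1 and under 2-fold, as 62.5% of all genes were higher at that p at any fold. Their log2 fold changes were 0.53, 0.49 and 0.81, none above the all-gene median of 0.90. After rescaling the difference of Nfkb1 was 0.02 (adjusted p = 0.85), that of Tnip1 0.31 (adjusted p = 0.043) and that of Rel -0.02, and that of Nfkb2 was negative as well. With a pseudocount of 2 Relb was not called (-0.92), which left 2 called members. Without a protein or cell measurement, fewer cells of a type in a sorted sample and less RNA per cell cannot be told apart.

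Against P10, 2 members were called, Relb and Nfkbiz, both lower in P11, where 20.4% of all genes were called and 7.52% were called lower. A further 5 members, Nfkb2, Rel, Nfkbia, Nfkbie and Tnfaip3, were lower in P11 at an adjusted p under 0.1 and under 2-fold, which makes 7 of 10, against 16.3% of all genes lower at that p at any fold. Without P10 replicate 3, Nfkbia was called as well (-1.01) and Nfkbie no longer passed the adjusted p (-0.43, adjusted p = 0.13). No member was higher in P11 at that threshold. The median over the members was -0.58, against 0.25 over all genes. After rescaling 4 members were called, with Nfkb2 and Nfkbia added.

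Between P11 and P12, 0 members were called by limma, and 0.0223% of all genes were, which is 3 genes. At an unadjusted p under 0.05 there was 1 member, Rel (log2 fold change -0.36, adjusted p = 0.21), and 1860 of the 13450 genes. The differences of the 10 members ranged from -0.41 to 0.16, and their 95% intervals reached from -0.97 to 0.59, so that differences of 2-fold lay outside the interval of every member. The count of members was 0 under every alternative, whereas that of all genes depended on the setting. Over these it ran from 1 to 119. It was 119 with the replicate block, 34 with a pseudocount of 2, 82 without P12 replicate 2, 41 without P9 replicate 3 and 30 without P10 replicate 3, and 1 to 6 without any other single library.

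P9 and P10 both carry Mac1. The median over the members was -0.40 for P9 against P10, where that of all genes was -0.61. Nfkb2 and Rel were called lower in P9 than in P10, where 42.4% of all genes were called and 34.1% were called lower. After rescaling neither was past 2-fold (-0.93 and -0.71) and Nfkbia was called higher in P9 (1.03). Rela, Nfkbie and Tnfaip3 changed sign with the rescaling, at differences that did not pass the test on either scale.

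P9 against P12 gave 2 calls, Nfkbia and Nfkbiz, both higher in P9, where 54.3% of all genes were called and 11.1% were called higher. The median over the members was -0.03, against -0.80 over all genes. Without P12 replicate 3 Relb was called as well, and after rescaling Relb and Nfkbie were. P10 against P12 also gave 2 calls, Relb and Nfkbiz, both higher in P10, with 12.1% of all genes called and 5.83% called higher, and the same 2 members were called without P12 replicate 3. The comparisons share libraries, so their calls are not independent of each other.

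**Figure D4:**
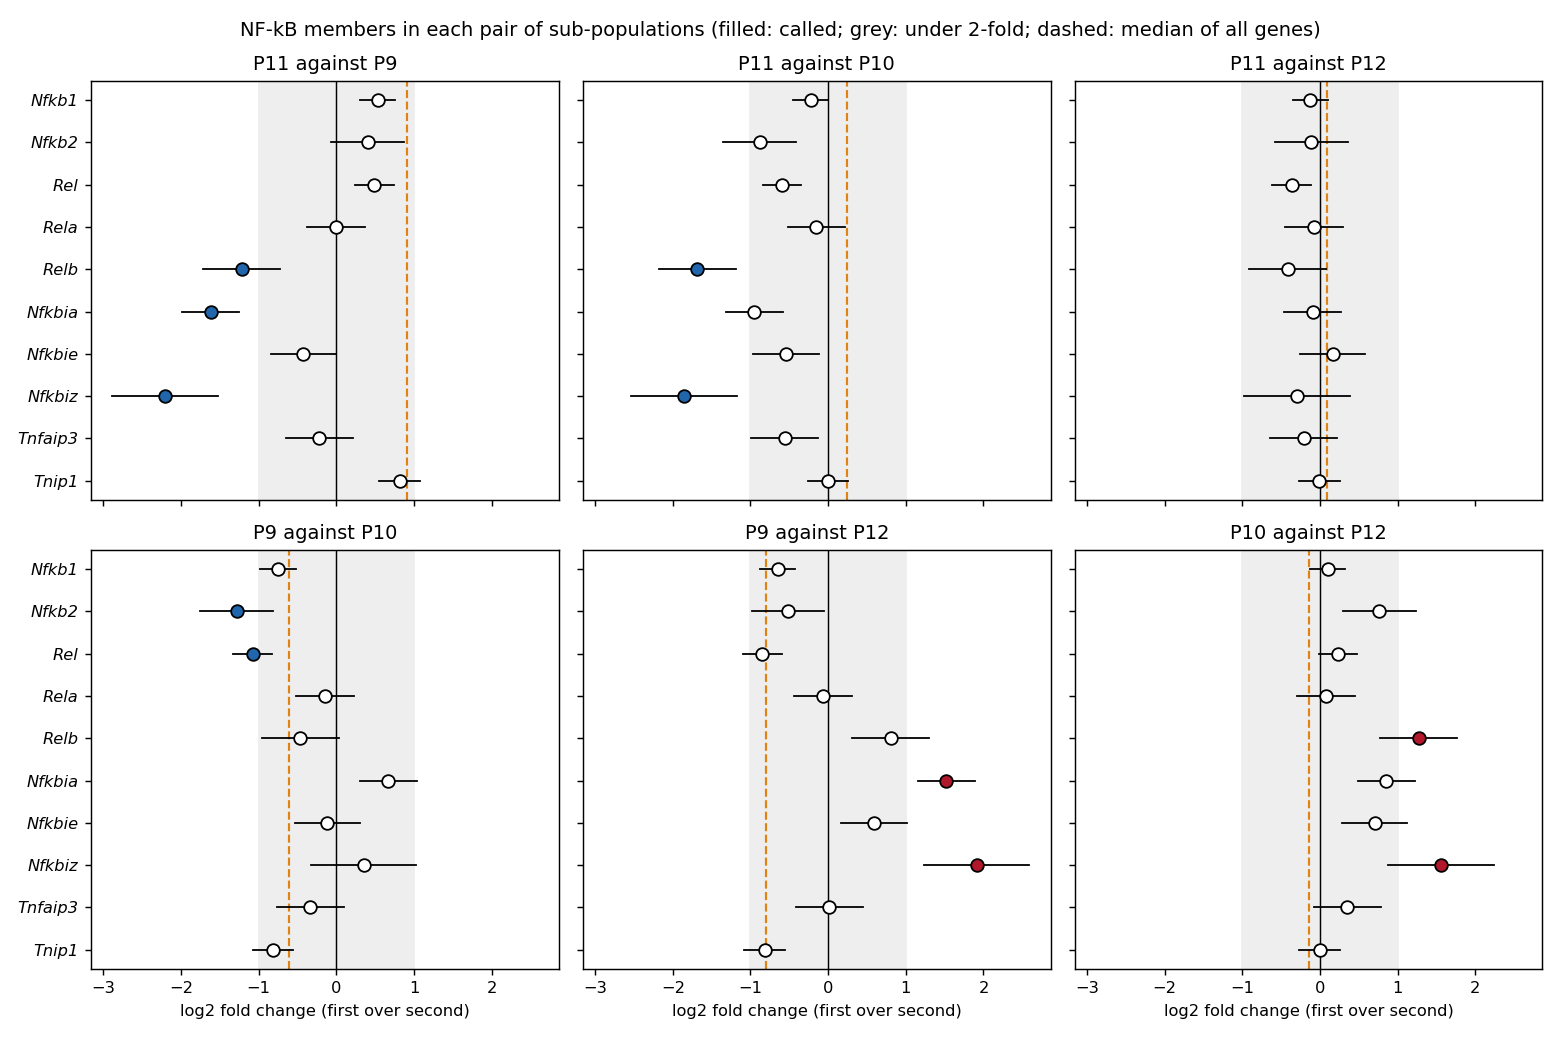
Log2 fold change (point) and 95% interval (line) of each member in the 6 pairs of sub-populations, the first named over the second, from limma on log2(CPM + 0.5). Filled points were called (blue lower, red higher in the first), the grey band marks less than 2-fold, and the dashed line is the median of all 13450 genes, which lies at 0.90 for P11 against P9.

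Apart from the added 0.5, ratios of 2 members inside a library do not depend on how the library is scaled, and 7 such ratios were compared in the 6 pairs of sub-populations. The log2 ratio of Nfkbia to Rela, inhibitor over its main target, was -1.01 ± 0.26 in P11, against 0.60 ± 0.46 in P9, -0.21 ± 0.18 in P10 and -0.99 ± 0.13 in P12 (SD, n = 3 each). P9 libraries were above P10 libraries and these above the libraries of P11 and P12. With 3 libraries against 3 the exact two-sided permutation test cannot go below p = 0.1, which was reached in 5 of the 6 pairs for Nfkbia over Rela, all but P11 against P12 (p = 1). Of the ratios of all genes to Rela, 33.9 to 74.3% were without overlap in these 5 pairs, and 11.5% between P11 and P12.

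The log2 ratio of Relb to Rela was -4.38 ± 0.18 in P11, against -3.17 ± 0.15 in P9, -2.85 ± 0.10 in P10 and -4.04 ± 0.31 in P12. That of Rel to Rela was 0.56 ± 0.17 in P11, against 0.06 ± 0.26 in P9, 1.00 ± 0.21 in P10 and 0.85 ± 0.40 in P12. That of Nfkbie to Nfkbia, 2 inhibitors of like function, was -1.34 ± 0.22 in P11, against -2.53 ± 0.40 in P9, -1.75 ± 0.29 in P10 and -1.60 ± 0.23 in P12, so that P9 carried the most Nfkbia relative to Nfkbie. Over all 42 comparisons of ratios 26 had groups without overlap, at an exact permutation p of 0.1 and a Benjamini-Hochberg adjusted p of 0.162. Of the ratios of all genes tested to the same denominators in the same pairs, 54.7% were without overlap, so that the share of the members is near the background. None of these 26 was between P11 and P12, where 11.5 to 28.8% of the ratios of all genes were without overlap, depending on the denominator.

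**Figure D5:**
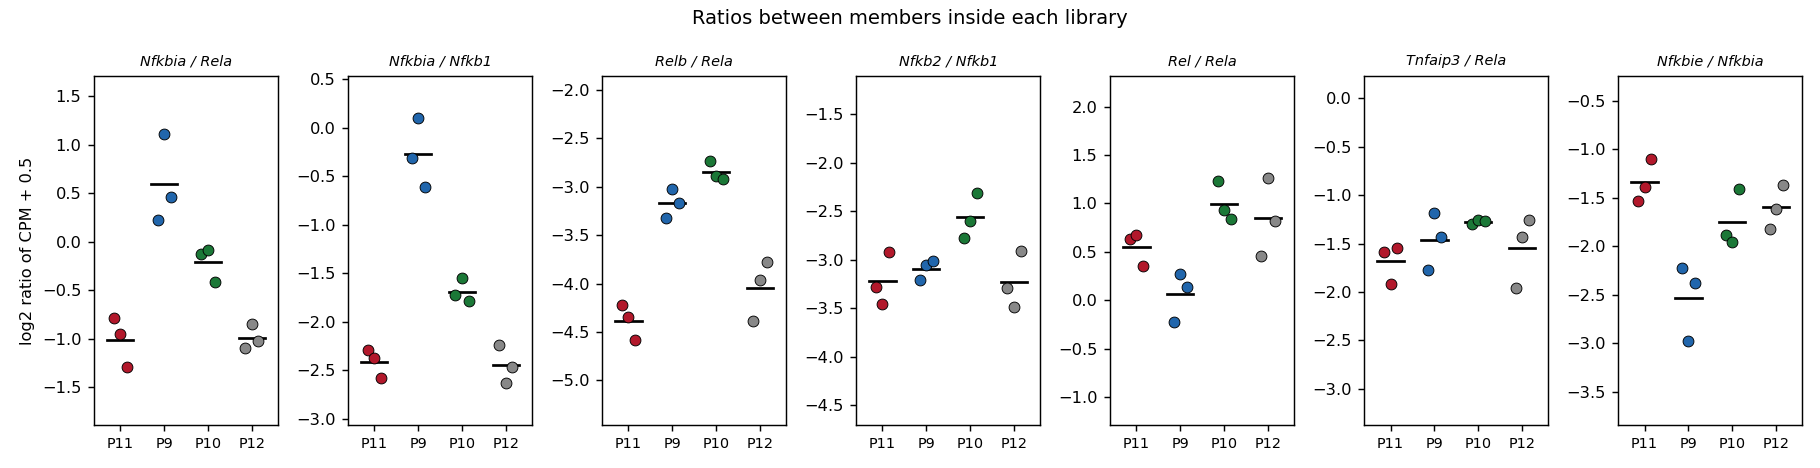
Log2 ratio of the CPM + 0.5 of 2 members inside each library (points), with the mean of 3 libraries (line), for P11, P9, P10 and P12, on panels of equal height. In the first 3 panels P9 and P10 lie above P11 and P12, and in the panel of Tnfaip3 over Rela only P11 and P10 are without overlap.

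Over the 12 libraries the members fell into groups by likeness of pattern, given here as a description since the libraries share their sorts, depth and scaling. Of the 45 pairs of members 6 had a Pearson r of log2 values of 0.8 or more. The highest were Nfkb1 with Rel (r = 0.94) and with Tnip1 (r = 0.89). Relb with Nfkbiz (r = 0.88) and Nfkbia with Nfkbiz (r = 0.87) came next. Nfkbia with Tnip1 was the lowest, at r = -0.77.

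Each member was also set against 8225 protein-coding genes at a mean of 10 CPM or more. The 3 genes most like Nfkbiz were Cd84 (r = 0.98), Itgam (r = 0.97) and Gcnt2 (r = 0.97), of which Itgam is a gene of Mac1, a marker the sort used. For Relb they were Stat6, Sema4d and Itgal (r = 0.98 to 0.99), and for Nfkbia Osgin1, Sfxn5 and Arhgap9 (r = 0.98 each). Nfkb1 was nearest to Stard9, Snx1 and Csf1r (r = 0.98 to 0.99), Rel to Adcy7, Tubb2a and Il10ra (r = 0.98 each), Nfkb2 to Xaf1, Slfn5 and Ifi213 (r = 0.97 to 0.98) and Tnip1 to Bag3, Pofut2 and Tob2 (r = 0.98 to 0.99). Nfkbie was nearest to Tcn2, Tor4a and Nod1 (r = 0.93 to 0.95) and Tnfaip3 to S1pr2, Casp9 and Tspan14 (r = 0.90 to 0.93). The number of genes at r of 0.9 or more was 1143 for Tnip1 and 778 for Nfkb1, but 18 for Nfkbie and 2 for Tnfaip3.

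Other genes of the pathway were counted from lists, again by the adjusted p and 2-fold. Of all genes tested, 19.9% were called higher in the comparison of P11 with the mean of the others, 46.8% in that with P9 and 12.8% in that with P10. Called lower were 5.2%, 11.2% and 7.52%, in the same order. The calls of the lists are on the CPM scale, and those after rescaling are not given. Of 16 other inhibitor genes tested, P11 against the mean of the others gave 0 higher and 1 lower, with a median of -0.02 (0.40 over all genes). The lower one was Pdlim2, which encodes a ubiquitin ligase for Rela (8.45 ± 0.54 CPM in P11, against 44.3 ± 10.2 in P9, 18.3 ± 1.4 in P10 and 11.2 ± 1.6 in P12). Otulin and Tnip2 rose and Rnf11 fell in P11 against P9, where 2 of the 16 were called higher and 4 lower.

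Of 17 kinase genes of the pathway, 4 were called higher in P11 than in P9 and none lower, and none was called higher than in P10 and 3 lower. Ikbkb, which encodes the IKK subunit that marks IkB-alpha, had 148 ± 9.5 CPM in P11, against 68.9 ± 3.7 in P9, 241 ± 24 in P10 and 168 ± 18 in P12 (SD, n = 3 each). Ikbke, Irak1 and Ripk2 were also called higher in P11 than in P9, and Ikbke and Ripk2 were called lower than in P10. The median of the 17 kinase genes was 0.23 against P9, below the 0.90 of all genes. The 4 genes called higher than in P9 were at 1.04 (Irak1) to 1.10 (Ikbkb), just past 2-fold and near that 0.90.

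Of 20 adaptor and ubiquitin ligase genes, 2 were called higher and 1 lower in P11 than in P9, and 0 higher and 3 lower than in P10. Birc3, itself a known NF-kB target, had 46.5 ± 5.0 CPM in P11, against 77.3 ± 5.5 in P9, 114 ± 10 in P10 and 61.0 ± 11 in P12, and was called lower in P11 than in P10. Peli1 was called in the same comparison. Rbck1 and Traf5 were called higher in P11 than in P9 (log2 fold changes 1.33 and 1.16, where the median of all genes was 0.90).

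Of the receptor and ligand genes 12 of 17 were tested. Against P9, 2 were called higher in P11 and 7 lower, and against P10 it was 0 and 6. Il1b, the gene of interleukin-1 beta, averaged 0.108 CPM in P11, against 13.2 in P9, 2.91 in P10 and 0.0938 in P12. Tnfsf13b, the gene of the cytokine BAFF, averaged 3.81 CPM in P11, against 120.3 CPM in P9, 13.9 CPM in P10 and 2.95 CPM in P12, and Ltb was also lower in P11 than in both. Tnfrsf1b, a TNF receptor gene, averaged 135 CPM in P11, against 47.2 in P9, 457 in P10 and 154 in P12.

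Of 30 known NF-kB target genes 16 were tested. In P11 they went both ways against P9, with 4 called higher and 6 lower, and against P10 there were 0 higher and 4 lower. Icam1 and Ninj1 were called higher in P11 than in P9, with Icam1 at 16.8 ± 1.3 CPM in P11, against 2.76 ± 1.1 in P9, 26.9 ± 2.3 in P10 and 21.5 ± 2.9 in P12. Cxcl2 was listed at 0 in every P11 and P12 library and averaged 6.11 CPM in P9, and Plek was called lower in P11 than in P9 and P10. The median of the 16 target genes was -0.50 for P11 against the mean of the others, where that of all genes was 0.40.

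The summed levels of some lists of other responses and cell types differed among the sub-populations as well. The 13 immediate early genes, which react within minutes to many stimuli, summed to 135 to 151 CPM in P11, against 402 to 579 CPM in P9, 415 to 468 CPM in P10 and 141 to 274 CPM in P12. Of the 13, 0 were called higher and 8 lower in P11 against the mean of the others (Jund, Egr1, Egr2, Atf3, Dusp1, Nr4a1, Zfp36 and Btg2), with a median of -1.16. Of all genes 19.9% were called higher and 5.2% lower in that comparison, with a median of 0.40. Not all of the 13 had the order of Relb, Nfkbia and Nfkbiz, since 6 were called higher but Fos and Fosb lower in P9 than in P12. In that pair 54.3% of all genes were called, and 11.1% were called higher. Fos averaged 7.96 CPM in P11, against 4.16 CPM in P9, 29.0 CPM in P10 and 18.1 CPM in P12. The 10 neutrophil markers summed to 210 to 685 CPM in P11, against 105244 to 118317 CPM in P9, 1214 to 11058 CPM in P10 and 280 to 421 CPM in P12.

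The 10 monocyte markers had their lowest sum in P9. They summed to 2338 to 3047 CPM in P11, against 124 to 147 CPM in P9, 4949 to 5696 CPM in P10 and 3173 to 5032 CPM in P12. Of the 10, 7 were called higher in P11 than in P9 (F13a1 and Csf1r among them), whereas C1qa and C1qc were called lower. Markers of T and NK cells summed to at most 11.04 CPM and those of B cells to at most 23.3 CPM in any library. Erythroid markers summed to 86.5 to 213.5 CPM in P9 and 83.3 to 107.8 CPM in P10. Their sums were 45.3 to 59.8 CPM in P11 and 62.1 to 64.6 CPM in P12. All 4 erythroid markers tested were called lower in P11 than in P9, where 11.2% of all genes were. Dendritic cell markers reached 506 CPM and stromal markers 227 CPM. At these maxima nearly all of the sum came from Flt3 (up to 501 CPM) and Pecam1 (up to 221 CPM), genes that blood progenitors also express. This did not hold in P9, where stromal markers summed to 22.5 to 40.9 CPM. There Pecam1 averaged 13.8 CPM and Col1a1 13.4 CPM, against 0.54 CPM of Col1a1 in P11, 1.17 in P10 and 0.23 in P12. The part of these genes in the results for the members was not tested.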

How the data were processed

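RNA-seq libraries of the 4 sub-populations (3 each) were analysed from the processed table. By the methods of the study, the authors aligned single reads of 61 bases with STAR 2.5.3a to mm10 and counted them on Ensembl transcripts with Partek's E/M method. The submitters' processing notes also name bcl2fastq 2.17, Bowtie2, DESeq and DESeq2 3.5 without their roles. The deposited values are CPM with 0.0001 added, for 20202 genes. This offset was subtracted. Of the low values 76.6 to 83.0% lay within 0.1 of a whole number of alignments, too few to recover reads, so no count model was used. The members and gene lists were chosen with earlier results of these data known.

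Genes that reached 1 CPM in 3 or more of the libraries were tested on log2(CPM + 0.5) with limma 3.58.1 in R 4.3.3. The model held the means of the 4 sub-populations, and variances were moderated with a trend on intensity. The procedure was tested on simulated data. All members were described, and of each other list up to 4 genes with the smallest F-test p. Immediate early genes and monocyte markers were also named outside this rule. The genes nearest to Rela are not reported here. Ratios were compared by exact permutation, two-sided. Sequences and start sites are RefSeq's (GRCm38.p6), and transcript lengths GENCODE's. Tables and plots were made in Python 3.11.15 (numpy 2.4.6, pandas 2.3.3, matplotlib 3.10.9).

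Alternatives were pseudocounts of 0.1 and 2, no filter or one of 10 CPM, median-ratio rescaling, an adjusted p of 0.05, protein-coding genes alone, no intensity trend, the replicate number as a block, and leaving out libraries. Deviations of same-numbered libraries from their group means correlated at r = -0.02 to 0.53 over 18 pairs (median 0.14), of which 12 were over 0.1. Over the 36 pairs with different numbers the median was -0.12, and 9 were over 0.1. Whether a number marks a shared mouse was not tested. All same-numbered pairs of 2 sub-populations were over 0.1 only between P11 and P10 (0.45, 0.17 and 0.53), and blocking left the 2 calls of that comparison as they were.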

Additional observations from a re-analysis of the deposited data

How the results depend on the processing

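The count of members that differ among the sub-populations was 7 to 10 over all alternatives (7 with a filter of 10 CPM, 10 after rescaling), and 9 with the replicate block, where no other count of called members changed; the labels do not say that a number marks a mouse. With a pseudocount of 2 or a filter of 10 CPM, P11 against the mean of the others gave 1 called member instead of 2 and P11 against P9 gave 2 instead of 3. With that filter P11 against P10 and P10 against P12 gave 1 each, since Relb was not tested. Leaving out replicate 3 of every sub-population also gave 1 for P11 against the mean of the others. After median-ratio rescaling, P11 against P10 gave 4 called members instead of 2, P9 against P12 gave 4 instead of 2, and P9 against P10 gave 1 instead of 2. Rescaling reversed Rel in P11 against P9 (-0.019 instead of 0.49). It moved the split of all called genes in P11 against P9 to 4541 higher and 2270 lower, against 6288 and 1504. With a pseudocount of 2 the difference in the log2 ratio of Relb to Rela was -0.92 for P11 against P9 (-1.21 otherwise), -1.17 for P11 against P10 (-1.53) and 0.94 for P10 against P12 (1.19). The cause of these changes was not tested, apart from the untested Relb. With single libraries left out, the counts were 8 to 9 for the F-test, 2 to 3 for P11 against the mean of the others, P11 against P10 and P9 against P12, and as first given elsewhere. Of 830 refits of single differences that passed the adjusted p, 812 kept their direction and side of the threshold, 5 lost and 12 gained the call. Relb rests on few alignments at the inferred depths.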
